A study of Mus musculus with 6 samples.

Results

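The regions described here are the stretches of open chromatin at 9 genes of retinoic acid signalling in mouse nephron progenitor cells. A region was taken where its midpoint lay within the RefSeq span of Rara, Rarb, Rarg, Rxra, Rxrb, Aldh1a1, Aldh1a2, Cyp26b1 or Crabp2, or within 50 kb of it, and this gave 43 of the 43523 distinct regions in the count table. The cells came from kidneys of CD1 mice at E14.5 (embryonic) or P0 (the day of birth), with no transgene or treatment named for either stage. Each stage had 3 ATAC-seq libraries, and each library came from the pooled kidneys of 1 litter, from which Itga8-bearing cells had been taken with magnetic beads. ATAC-seq counts the DNA that the transposase Tn5 can reach, so a count reflects how open a region was and not how much RNA its gene made. The regions were spread unevenly: Rarb had 21, Crabp2 had 5, Rara, Rarg and Aldh1a1 had 4 each, Rxrb had 2, and Rxra, Aldh1a2 and Cyp26b1 had 1 each. The RefSeq span of Rarb is 651 kb, and those of the others run from 4.68 to 151 kb.

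Retinoic acid is a small hormone made inside cells from vitamin A. Retinaldehyde dehydrogenases of the Aldh1a family carry out the last step of its synthesis, Crabp2 carries it to the nucleus, and Cyp26 enzymes break it down. In the nucleus it binds retinoic acid receptors (Rara, Rarb and Rarg), which pair with retinoid X receptors (Rxra, Rxrb and Rxrg) on DNA and recognise direct repeats of a short hexamer. In the developing kidney, stromal cells around the progenitors make retinoic acid, and its receptors are known for keeping Ret active in the branching ureteric bud.

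The letters of 3 promoters are shown first, because they hold the receptor's own hexamer (AGGTCA or one of its close variants, namely AGTTCA as well as GGGTCA and further GGTTCA, read on either strand) at genes with open chromatin nearby. They are the 250 bases before annotated starts, 5′ to 3′ along the gene, from RefSeq on GRCm38.p6, with hexamers in capitals. For Rarb the capitals also run across the spacer of a direct repeat with 5 bases between its hexamers (DR5). The Rarb stretch is chr14:16575477-16575726 on the minus strand and lies wholly inside an open region.
Rarb: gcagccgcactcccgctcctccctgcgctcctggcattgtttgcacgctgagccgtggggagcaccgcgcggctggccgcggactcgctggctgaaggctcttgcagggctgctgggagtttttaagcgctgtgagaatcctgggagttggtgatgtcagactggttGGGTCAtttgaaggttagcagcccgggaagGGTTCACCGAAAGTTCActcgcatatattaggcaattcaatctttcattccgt
The Aldh1a1 stretch, chr19:20601718-20601967 on the plus strand, precedes the one of its 2 listed starts that lay in an open region.
Aldh1a1: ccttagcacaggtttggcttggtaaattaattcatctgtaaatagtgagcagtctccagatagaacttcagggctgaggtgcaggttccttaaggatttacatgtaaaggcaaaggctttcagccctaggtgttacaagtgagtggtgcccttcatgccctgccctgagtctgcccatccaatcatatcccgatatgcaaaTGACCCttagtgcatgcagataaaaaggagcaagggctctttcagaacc
The Rara stretch, chr11:98939461-98939710 on the plus strand, precedes a start 1.07 kb beyond the open promoter region of that gene.
Rara: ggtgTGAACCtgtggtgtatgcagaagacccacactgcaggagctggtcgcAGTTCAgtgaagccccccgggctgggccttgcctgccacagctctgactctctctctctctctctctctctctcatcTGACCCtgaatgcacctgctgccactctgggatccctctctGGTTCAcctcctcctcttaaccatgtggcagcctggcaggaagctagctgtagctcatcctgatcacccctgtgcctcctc

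The Rarb repeat, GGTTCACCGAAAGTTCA, occupied bases 53 to 37 before the start; the Rarb promoter is a textbook target of its own receptor through such an element. Over the RefSeq promoters (250 bases before to 50 after each start), a DR5 on either strand was found in 32 of 32851 sequences (0.0974%), and in 1 of the 15 sequences of the 9 genes. Repeats with 1 or 2 bases between the hexamers (DR1 and DR2) occurred in 0.222% and 0.268% of all promoters and in 0 of the 15. The hexamer alone was common: 43.7% of all promoters and 6 of the 15 held one. RefSeq listed these 15 sequences for 8 of the genes, and Crabp2 had no entry. A match is a match of letters only.

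All regions were tested together with edgeR's quasi-likelihood test, with Benjamini-Hochberg adjustment over the 43523 regions and a threshold of 0.05. At the 9 genes, 2 of 43 regions passed, 1 higher and 1 lower at P0, both at Rarb. Over all regions 4.73% passed, 1.79% as higher and 2.94% as lower at P0, so the share at these genes (4.65%) was near the background. An unadjusted p under 0.05 was reached by 5 of the 43 regions, all of them at Rarb, against 18.7% of all regions. Outside Rarb, 0 of 22 regions passed the adjusted threshold and 0 had an unadjusted p under 0.05 (smallest edgeR adjusted p = 0.291). The stages did not overlap in 7 of the 43 regions, 4 of them higher and 3 lower at P0. Of all regions, 24.2% had such separate stages, 11.8% higher and 12.4% lower at P0. The median log2 fold change was -0.04 at the 9 genes and 0.01 over all regions, and 19 of the 43 values were above 0. All 43 regions passed the filter on low counts, and the lowest value in any library was 2.80 CPM (counts scaled to a common library size).

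**Figure D1:**
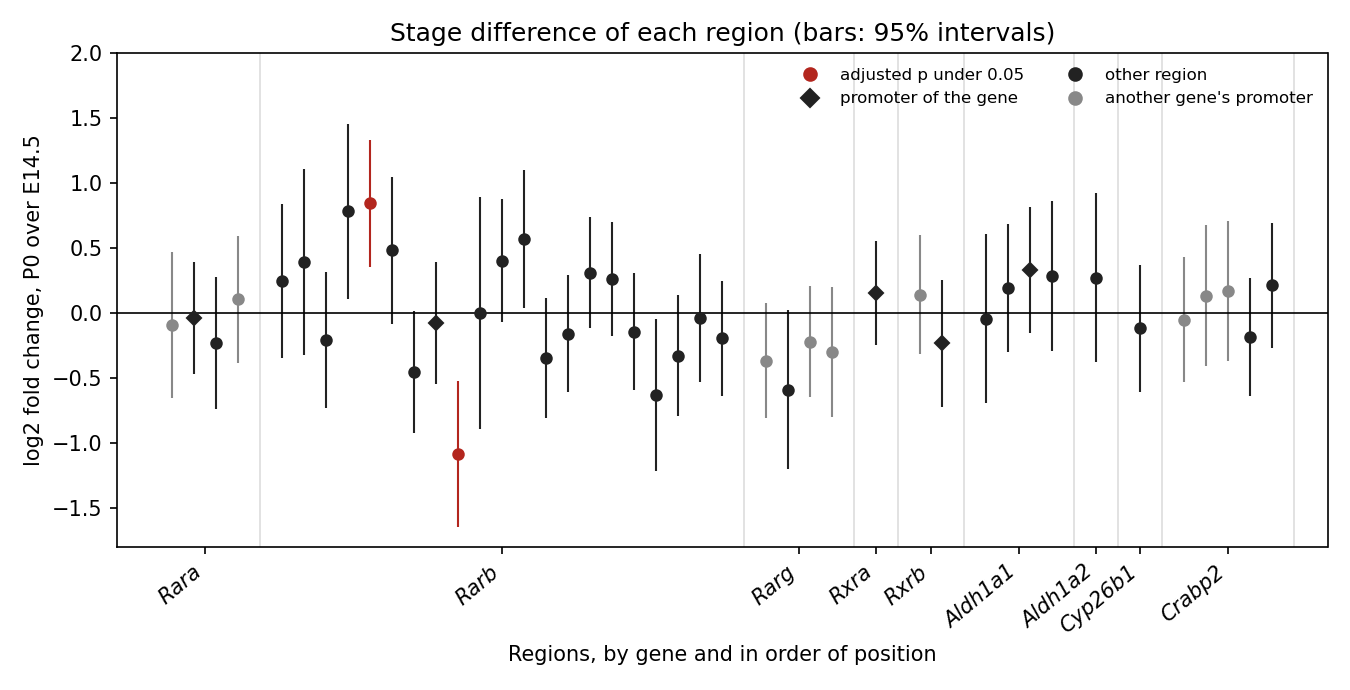
Log2 fold change (P0 over E14.5, y axis) of each of the 43 regions, grouped by gene and ordered by position, with 95% intervals as bars. The 2 regions in red, both at Rarb with values of 0.85 and -1.08, passed the threshold, and the intervals at most other regions cross 0.

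Depth ran from 6492996 to 12292629 counts in regions per library, with P0 replicate 2 the shallowest. After scaling, that library was the lowest of the 6 at the Rarb, Rara and Rxrb promoters (43.1, 19.2 and 19.5 CPM). At the Aldh1a1 promoter it was the highest (32.8 CPM), and at the Rxra promoter it was neither. The cell type was checked on promoter regions of marker genes. Of 11 nephron progenitor markers, 6 had one (Six2, Eya1, Osr1, Sall1, Wt1 and Gdnf) and 5 had none (Cited1, Crym, Meox1, Pax2 and Itga8, the antigen used for isolation), and their summed level was 169 to 179.6 CPM at E14.5 and 142 to 193 at P0. Promoter regions were also listed for 4 of 8 stromal markers (65.6 to 95.8 CPM at E14.5, 83.5 to 102 at P0), 4 of 6 ureteric bud markers (90.5 to 106 and 79.8 to 91.9), 2 of 5 markers of differentiating nephrons (109 to 122 and 109 to 145), 1 of 6 endothelial markers (19.8 to 29.6 and 22.7 to 31.2) and 0 of 5 immune markers. The stages overlapped in each list that had a region, and the part of other cell types in the results was not tested. In these bulk libraries, fewer cells with an open region and less access per cell cannot be told apart.

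Among the receptors, Rarb, whose product is itself induced by retinoic acid in many tissues, had the most open promoter. Its promoter region (chromosome 14, 16573796 to 16576135) held 56.8, 62.0 and 69.7 CPM at E14.5 and 63.8, 43.1 and 71.5 CPM at P0, in the order of replicates 1, 2 and 3, as in all such series of values here. The stages overlapped, since both the lowest and the highest value came from P0. The log2 fold change was -0.08 (SE 0.22, edgeR adjusted p = 0.899) with a 95% interval from -0.54 to 0.39, and it turned to 0.11 without P0 replicate 2. This region contains the direct repeat shown above.

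Rara, the most widely expressed of the receptors, had an open promoter and an open region within the gene. The promoter region (chromosome 11, 98936206 to 98938639) held 28.4, 22.4 and 24.6 CPM at E14.5 and 25.9, 19.2 and 28.0 CPM at P0. These ranges overlapped almost wholly (log2 fold change -0.03, SE 0.20, 95% interval -0.47 to 0.40). The internal region (98962763 to 98964267) lay outside exons, 0.605 kb before a further listed start, and overlapped an enhancer of the FANTOM set. Such an overlap was found at 1 of the 43 regions and at 4201 of all 43523. The internal region was the 1 of the 43. It held 17.4, 14.4 and 19.97 CPM at E14.5 and 11.2, 13.3 and 19.2 CPM at P0, again overlapping (log2 fold change -0.23, SE 0.24, edgeR adjusted p = 0.664). The other 2 regions in the Rara window were promoters of Cdc6 and Top2a, genes of DNA replication and chromosome untangling, with log2 fold changes of -0.09 and 0.11.

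Rarg had no region within its gene. Neither of its 2 listed starts lay in a region, and the regions nearest to those starts were 21.1 and 21.3 kb away. The 4 regions in its window belonged by annotation to Zfp740, Itgb7, Mfsd5 and Espl1. All 4 had log2 fold changes below 0, from -0.59 to -0.22, and none passed the threshold (smallest edgeR adjusted p = 0.291). The Itgb7 region (chromosome 15, 102224317 to 102225357), which overlaps an exon of this integrin gene, held 10.1, 8.32 and 8.29 CPM at E14.5 and 4.37, 5.75 and 7.50 CPM at P0. Each P0 value was under each E14.5 value there. Summed over the 4 regions, the embryonic libraries held 71.2 ± 8.24 CPM and the newborn ones 56.1 ± 8.19 (mean ± SD, n = 3; two-sided exact permutation p = 0.2). The absence of a region says that none entered the authors' list, not that the chromatin was closed.

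The retinoid X receptors, the shared partners of the receptors above, were each open at their promoters. The Rxra region (chromosome 2, 27675600 to 27678403) held 19.2, 18.0 and 20.7 CPM at E14.5 and 20.2, 21.9 and 22.3 CPM at P0. It varied less between libraries than the other promoters, and the stages overlapped slightly (log2 fold change 0.16, SE 0.19, edgeR adjusted p = 0.716). A further listed start of Rxra lay 30.9 kb from the nearest region. The Rxrb promoter region (chromosome 17, 34030968 to 34033049), which also overlaps the start of Slc39a7 on the opposite strand, held 25.6, 19.6 and 34.7 CPM at E14.5 and 20.9, 19.5 and 27.2 CPM at P0. Its spread within E14.5 exceeded the difference between stages (log2 fold change -0.23, SE 0.23), and without E14.5 replicate 3 the log2 fold change was 0.0036. A second region by Rxrb was the promoter of H2-Ke6, with a log2 fold change of 0.14.

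Of the synthesis enzymes, Aldh1a1 was open at a start inside its RefSeq span and Aldh1a2 had no region at its start. The Aldh1a1 promoter region (chromosome 19, 20600307 to 20602756) held 24.7, 27.4 and 15.6 CPM at E14.5 and 23.8, 32.8 and 28.8 CPM at P0. One low library, E14.5 replicate 3, set the lower edge, and the stages overlapped (log2 fold change 0.33, SE 0.23, edgeR adjusted p = 0.481, 95% interval -0.15 to 0.81). The other listed start of Aldh1a1 lay 42.4 kb from the nearest region. Within the RefSeq span, 24.0 kb from the open start, a further region (20576370 to 20577982) held 9.73, 14.19 and 12.4 CPM at E14.5 and 14.47, 15.7 and 11.6 CPM at P0. Its stages overlapped (log2 fold change 0.19, SE 0.23, edgeR adjusted p = 0.719). Summed over its 4 regions, Aldh1a1 held 47.8, 54.6 and 43.8 CPM at E14.5 and 57.8, 61.1 and 54.7 CPM at P0. In this sum the lowest P0 library lay just above the highest E14.5 library, and the exact permutation test gave p = 0.1, the smallest that 3 libraries against 3 allow, or 0.6 after Benjamini-Hochberg adjustment over the 9 genes. With this scaling it was the only one of the 9 sums whose stages did not overlap. As mean log2 CPM over the regions its stages overlapped (exact permutation p = 0.2), and with total-count scaling the Rxra stages were separate too (p = 0.1).

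Aldh1a2, the main retinoic acid maker of the embryo, had a single region, 18.7 kb from its start and outside the gene (chromosome 9, 71194987 to 71197099), where it overlaps the uncharacterised gene Gm32511. It held 14.9, 8.93 and 10.6 CPM at E14.5 and 11.8, 21.2 and 9.16 CPM at P0. The value of P0 replicate 2 stood above the other 5, and without that library the log2 fold change of 0.27 (SE 0.30) became -0.14. The start of Aldh1a2 lies in sequence of 77.6% G and C, with 40 CpG pairs in the 250 bases before it.

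Cyp26b1, the enzyme that clears retinoic acid, likewise had 1 region, within the gene and outside exons, 2.14 kb from its listed start (chromosome 6, 84589749 to 84591669). It held 13.8, 10.5 and 14.0 CPM at E14.5 and 10.6, 13.6 and 11.1 CPM at P0, and the stages overlapped (log2 fold change -0.12, SE 0.23, 95% interval -0.605 to 0.37). For the carrier Crabp2, the window held 5 regions and none lay in the gene. Of these, 3 were the promoters of Hdgf, Mrpl24 and Isg20l2, 1 overlapped an exon of Bcan, and 1 lay between genes by the table (chromosome 3, 87959796 to 87961474). The last held 27.6, 22.7 and 33.2 CPM at E14.5 and 24.1, 19.7 and 29.3 CPM at P0, so that replicate 2 was lowest and replicate 3 highest at either stage. Its log2 fold change was -0.18 (SE 0.21, edgeR adjusted p = 0.708). The stages also overlapped at the Bcan region, 87986830 to 87988509 (log2 fold change 0.21, SE 0.23, edgeR adjusted p = 0.674).

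Levels of different promoters were compared per kb of region, as CPM per kb. Rarb had 26.9 ± 2.77 in the embryonic and 25.4 ± 6.27 in the newborn libraries (mean ± SD, n = 3), and it was the highest of the 5 promoters in each of the 6 libraries. Rxrb followed with 12.8 ± 3.64 and 10.8 ± 1.95, then Rara with 10.3 ± 1.23 and 10.02 ± 1.89, Aldh1a1 with 9.22 ± 2.51 and 11.6 ± 1.84, and Rxra with 6.88 ± 0.484 and 7.66 ± 0.396. Rxrb, Rara and Aldh1a1 changed places from library to library and did not differ beyond their spread. Rxra was lowest in 5 of the 6 libraries. Against all promoter regions, whose median was 12.8 CPM per kb, the mean of Rarb stood at the 81.8th percentile and that of Rxra at the 10.7th. Levels per kb depend on how widely the authors' caller drew each region.

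**Figure D2:**
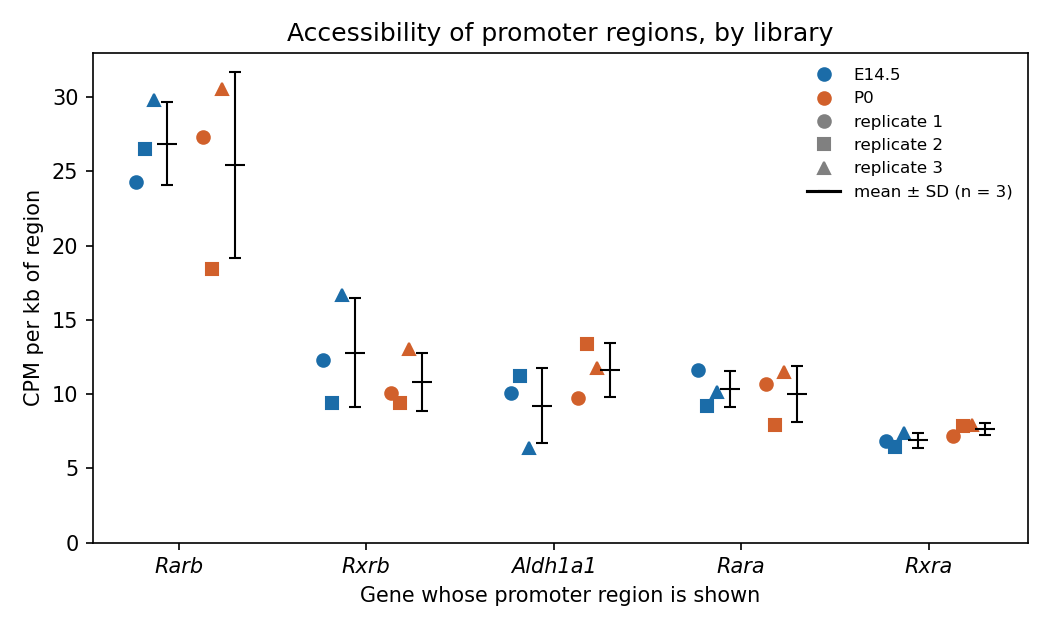
CPM per kb of region (y axis) in each of the 6 libraries for the 5 genes with an open promoter; colours give the stage, symbols the replicate, and black bars the mean ± SD (n = 3). Rarb lies above the other 4 genes in each library, and within each gene the stages overlap.

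Both regions that passed the threshold lay at Rarb, on either side of its open start. The first (chromosome 14, 16509760 to 16511498) was inside the gene, outside exons and 64.0 kb downstream of the start. It counted 95, 104 and 64 at E14.5 and 160, 119 and 196 at P0, or 11.3, 9.11 and 7.47 CPM against 16.7, 18.0 and 15.5 CPM. The lowest P0 library exceeded the highest E14.5 library, and the means rose from 9.28 ± 1.90 to 16.7 ± 1.27 CPM (n = 3, ± SD). The log2 fold change was 0.85 (SE 0.23, edgeR adjusted p = 0.0470, 95% interval 0.36 to 1.33). The table listed matches to the motifs of Sox3, Sox4, Junb and forkhead factors such as Foxd1 in this region. The call was narrow: it was lost on leaving out any of the 6 libraries, with adjusted p-values from 0.0556 (without P0 replicate 3) to 0.237 (without E14.5 replicate 3), although the log2 fold change stayed between 0.71 and 1.00. The count over all regions moved as well. It was 0.779% when E14.5 replicate 3 was dropped, 1.09% for P0 replicate 1 and 6.86% for E14.5 replicate 2.

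The second (chromosome 14, 16603133 to 16604035) lay 27.7 kb upstream of the start, between genes in the table's annotation and within the longer RefSeq span of Rarb. It counted 117, 150 and 142 at E14.5 and 49, 61 and 82 at P0, or 13.9, 13.1 and 16.6 CPM against 5.10, 9.23 and 6.47 CPM. No library of one stage reached the other, and the means fell from 14.53 ± 1.81 to 6.94 ± 2.10 CPM (n = 3, ± SD). Its log2 fold change was -1.08 (SE 0.26, edgeR adjusted p = 0.0287, 95% interval -1.64 to -0.52). No motif was listed for it. This call was lost without E14.5 replicate 1 (adjusted p = 0.0743), E14.5 replicate 3 (0.174) or P0 replicate 1 (0.161), with log2 fold changes from -1.32 to -0.92 when each of the 6 libraries was left out in turn. The authors' deposited table classed the 2 regions as opening and closing, with adjusted p-values of 0.0801 and 0.0848 and log2 fold changes of 0.85 and -1.14, at its threshold of 0.1. It classed no other of the 43 regions as changed, and 5.34% of all regions.

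**Figure D3:**
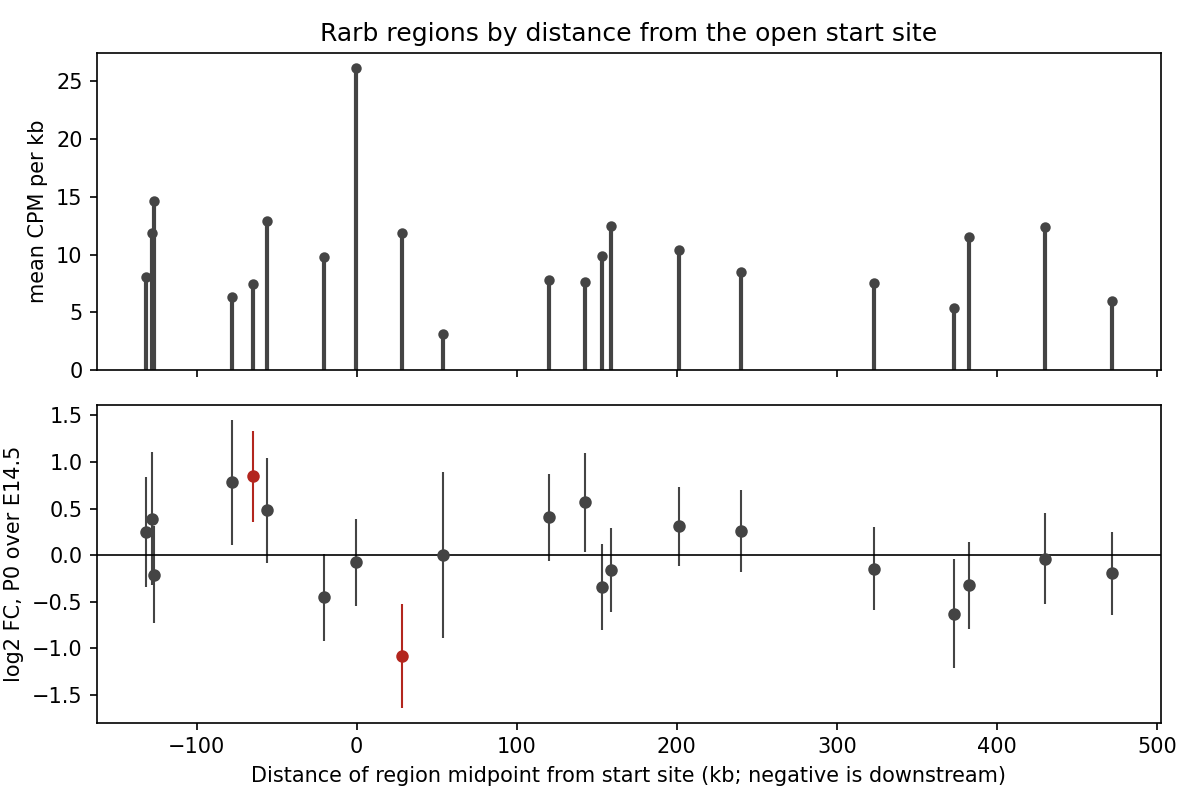
Mean CPM per kb over the 6 libraries (top) and log2 fold change, P0 over E14.5, with 95% intervals (bottom) of the 21 Rarb regions, by distance of their midpoints from the open start. The promoter region stands highest at 26.1 CPM per kb, and the 2 regions in red, downstream with 0.85 and upstream with -1.08, passed the threshold.

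The remaining Rarb regions were 7 in all downstream of the start, the raised one included, and 13 upstream, the lowered one included. Downstream, 2 neighbours of the raised region also had separate stages, so 3 of the 7 did, all higher at P0. Over all regions 24.2% had separate stages, 11.8% as higher at P0. In the remaining downstream regions the stages overlapped, with log2 fold changes of 0.25, 0.39 and -0.21 at those farthest from the start. The region 77.5 kb from the start (16497175 to 16497955) held 4.15, 3.94 and 2.80 CPM at E14.5 and 6.35, 6.66 and 5.84 CPM at P0, with a log2 fold change of 0.78 (SE 0.31, edgeR adjusted p = 0.187). The region 55.4 kb from the start (16519458 to 16520044) held 6.76, 6.22 and 5.96 CPM at E14.5 and 10.1, 7.72 and 8.60 CPM at P0, with a log2 fold change of 0.48 (SE 0.26, edgeR adjusted p = 0.353). Neither passed the threshold; the former lists Meis1, Foxo4 and Foxp3 motifs and the latter Smad4, Junb, Jund, Jun and Bach2. The region nearest to the promoter on this side, 19.4 kb away, had a value of the other sign, with 25.8 ± 6.10 CPM before and 18.7 ± 3.32 after birth (mean ± SD, n = 3, stages overlapping; log2 fold change -0.45, SE 0.22, edgeR adjusted p = 0.285).

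Upstream, the region with the most CPM after the promoter lay 157 kb from the start (16732967 to 16736075). It held 32.0, 50.1 and 40.6 CPM at E14.5 and 41.8, 36.8 and 31.7 CPM at P0, so the stages overlapped in part (log2 fold change -0.16, SE 0.21, edgeR adjusted p = 0.751), and without E14.5 replicate 2 the log2 fold change was 0.0038. The table lists a Meis1 match and several forkhead matches there. Separate stages were found at 2 further upstream regions, 201 kb from the start with 14.63 ± 1.72 and 18.2 ± 0.655 CPM, and 372 kb from the start with 10.2 ± 2.41 and 6.54 ± 0.819 CPM at E14.5 and P0 in turn (mean ± SD, n = 3). Their log2 fold changes were 0.31 (SE 0.20, edgeR adjusted p = 0.438) and -0.63 (SE 0.27, edgeR adjusted p = 0.227). A region 142 kb upstream (16717086 to 16718778) had an unadjusted p of 0.0379 with overlapping stages (log2 fold change 0.57, SE 0.25, edgeR adjusted p = 0.231). The region 372 kb upstream overlaps the end of Tpi-rs9, a pseudogene of a glycolysis enzyme, and whether its reads came from this place was not tested. In all, 6 of the 21 Rarb regions had separate stages, 4 higher and 2 lower at P0, against 24.2% of all regions. The sum over the 21 regions stood at 361 ± 24.2 CPM before and 352 ± 10.03 after birth (mean ± SD, n = 3; exact permutation p = 0.7).

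**Figure D4:**
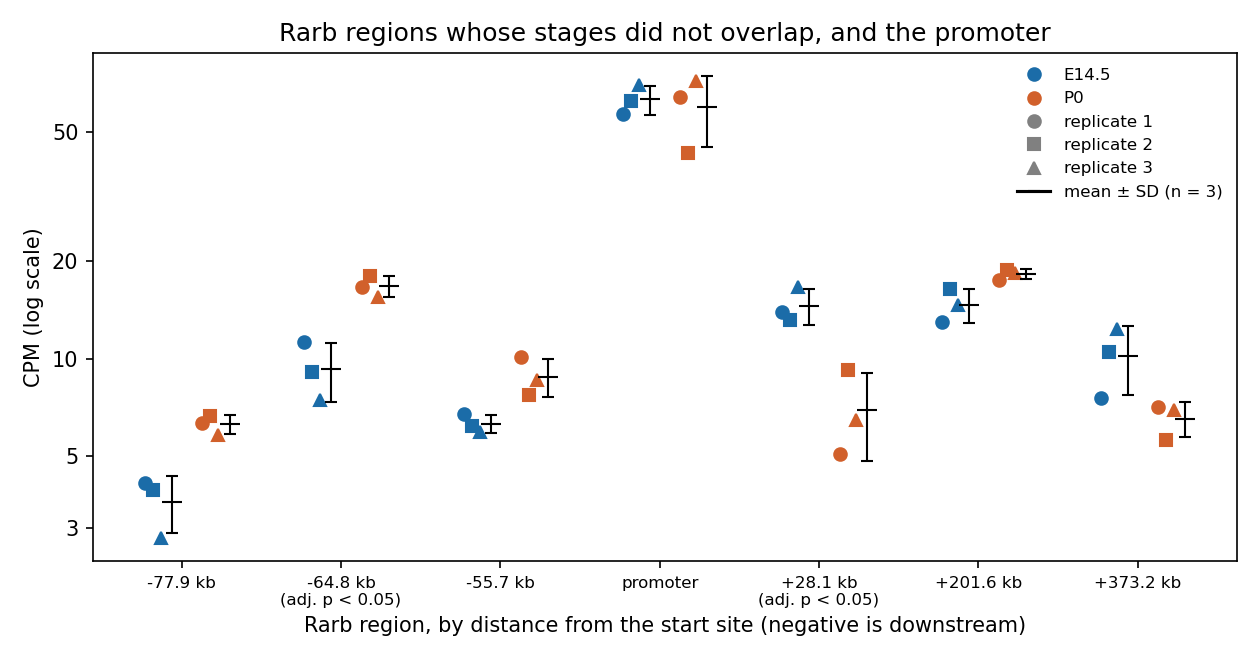
CPM (log axis) in each library of the 6 Rarb regions whose stages did not overlap and of the promoter region, by distance of their midpoints from the start; colours give the stage, symbols the replicate, and black bars the mean ± SD (n = 3). Apart from the promoter, where the stages overlap, the regions were picked for having separate stages. In the 3 downstream regions so picked the P0 libraries lie above the E14.5 libraries.

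Over the 9 genes the summed accessibility stood at 731 ± 37.5 CPM before and 714 ± 29.1 after birth (mean ± SD, n = 3; two-sided exact permutation p = 0.6). The difference, after minus before birth, turned from -16.4 to 13.2 CPM with total-count scaling and to 3.09 CPM when E14.5 replicate 3 was dropped. The sums of single genes ranged from 0.788 times the E14.5 mean at Rarg to 1.22 times at Aldh1a2, with exact permutation p-values of 0.1 to 1. Of the 43 regions, 9 were promoters of other genes and 5 were promoters of the genes themselves. None of the 9 neighbouring promoters passed the threshold, and their log2 fold changes ran from -0.36 to 0.17. At the edge of the 50 kb window, the Top2a promoter (49.2 kb from Rara) and a region 42.8 kb from Aldh1a1 were the last inside, with log2 fold changes of 0.11 and -0.04. A region in Top2b 50.4 kb from Rarb and a region in Espl1 52.9 kb from Rarg were the nearest outside, with 0.06 and -0.49.

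The table lists motif matches for its regions under 56 distinct names, and 0 of these are retinoid receptors. Forkhead names stood in 8 of the 20 Rarb regions outside the promoter (40%) and in 23.7% of all regions outside promoters. Sox names stood in 5 of the 20 (25.0%) and in 15.1% of all. Sall names, of a family that maintains nephron progenitors, stood in 3 of the 20 (15%) and in 12% of all. Meis names stood in 3 (15% against 6.77%) and AP-1 names, of Jun and Bach factors, in 2 (10% against 5.10%). Smad (2, 10% against 9.37%) and Six2 (1, 5% against 3.19%) were also listed. Lower shares than over all were found for Maz (2 of the 20, 10% against 13.2%), E2F (1, 5% against 6.32%) and Pax (0, against 4.73%). In the 43 regions together these were not lower than in all regions (Maz 25.6% against 21.3%, E2F 16.3% against 15.2%, Pax 4.65% against 4.26%). No name was listed for 5 of the 20 (25%), against 41.1% of all regions outside promoters, and this difference bears on the share of every family. These shares are descriptions of small numbers. None of the 43 regions overlapped an element of the VISTA enhancer set, and only 285 of all 43523 regions did.

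Other genes of the pathway were read in the same window from a list of 23. They were the partner Rxrg, the enzymes Aldh1a3, Rdh10, Dhrs3, Cyp26a1, Cyp26c1 and Lrat, the carriers Crabp1, Rbp4, Fabp5 and Stra6, the corepressors and coactivators Ncor1, Nrip1, Ncoa1, Ncoa2 and Ncoa3, and the target genes Tgm2, Nr2f1, Nr2f2, Ret, Ecm1, Meis1 and Meis2. Regions were found at 21 of them, 85 in all, with none at Stra6 or Tgm2, and the 2 regions at Cyp26a1 were those at Cyp26c1. Of the 85 regions, 1 passed the threshold (1.18%, against 4.73% of all regions), and it was higher at P0. The median log2 fold change of the 85 was 0.05. The region lay 17.1 kb outside Rxrg, the retinoid X receptor of muscle and brain (chromosome 1, 167580998 to 167581504). It held 2.02, 2.45 and 1.52 CPM at E14.5 and 6.25, 4.69 and 4.82 CPM at P0, with no overlap (log2 fold change 1.38, SE 0.37, edgeR adjusted p = 0.0433). That call was lost without E14.5 replicate 1 (adjusted p = 0.130), E14.5 replicate 3 (0.216), P0 replicate 1 (0.2496) or P0 replicate 2 (0.0575), and with limma-voom (0.0625). At Ret, which retinoic acid receptors keep active in the ureteric bud, 0 of 3 regions passed, and their median log2 fold change was -0.35.

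The promoters elsewhere whose pattern over the 6 libraries was most like that of the raised Rarb region were those of Tchhl1, of the unnamed gene ENSMUSG00000094523 and of Tspan5, with Pearson correlations of log2 CPM of 0.989, 0.985 and 0.983. For the lowered region they were those of Phactr3, Slc35e4 and Sema6d, with 0.991 in each of the first pair and 0.990 for Sema6d. A correlation takes no account of the size of a change. In the order named, log2 fold changes were 1.14, 2.42 and 0.21 in the first set and -0.78, -0.33 and -1.34 in the second. Tspan5 and Slc35e4 did not pass the threshold (edgeR adjusted p = 0.598 and 0.354). Each set is the top 3 of 14083 promoter regions over 6 libraries that share their depth and stage, and serves as a description only.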

How the data were processed

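The members and lists were chosen with earlier results of these data known. Per the labels' protocols, 50000 cells per library were transposed with Tn5. The deposited table gives whole-number counts per region and library, per the file headers. The authors used the build mm10, per the submitters' processing notes; aligner, peak caller, counting rule and Tn5 shift are not given in the sources used here. The table's log2 fold change, its score (t statistic) and its p-value come from the authors' own comparison, per the file headers, and are printed only where named. Repeated rows (1966 of 45489) were dropped, and 0 sample columns were unmatched. Gene spans, starts and promoter sequences are from RefSeq on GRCm38.p6; names came from the identifier and name pairs in the table (99.98% of named regions lay on the RefSeq chromosome).

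The stage difference was fitted by edgeR 4.0.16 under R 4.3.3 (TMM, filterByExpr, which removed 0 regions, quasi-likelihood F test on stage) over 43523 regions; the script was tested on simulated data. CPM used TMM-scaled libraries, and log2 CPM a prior count of 1. SE was the log2 fold change over the root of F, and 95% intervals used the fit's degrees of freedom. Sums were compared by exact permutation (smallest p 0.1). Each library is 1 litter, so the spread between libraries joins that of litters, cell isolation and library preparation, which cannot be told apart. The edgeR p-values also draw on dispersions estimated over all regions. Named were regions past the threshold, regions covering a start, and per gene the region with the smallest p and the highest non-promoter region; edge regions were also named, and the other Rarb regions were chosen after their values were seen. Alternatives were DESeq2 1.42.0 size factors and Wald test, limma-voom (limma 3.58.1), total counts, filters, autosomes, other windows and thresholds, a replicate block and leaving out each library. Some pathway genes listed at first are not reported here, and the counts leave them out.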

Additional observations from a re-analysis of the deposited data

How the results depend on the processing

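The 2 calls at Rarb stood with DESeq2 size factors, total-count scaling, the DESeq2 Wald test, limma-voom, no filter, at least 10 counts per library, autosomes alone, windows of 0, 10 and 100 kb, assignment by any overlap, other genes' promoters left out and a threshold of 0.1. With a threshold of 0.01 the count was 0 in all, 0 higher and 0 lower at P0. Among regions the table itself lists under the 9 genes, a choice made after seeing the data, it was 1 in all and 0 lower, since the lowered region has no gene there. When each of the 6 libraries was left out in turn, 0 to 1 regions passed, 0 to 0 higher and 0 to 1 lower, while 339 (without E14.5 replicate 3) to 2987 (without E14.5 replicate 2) of all regions passed, against 2059 with all libraries (474 when P0 replicate 1 was dropped, 1099 for E14.5 replicate 1). With the replicate block the count was 1, with 0 higher (raised region adjusted p = 0.0534), and the Rxrg region had an adjusted p of 0.0835. The numbers were not shown to pair the libraries: same-numbered pairs had deviations correlated at 0.0666, -0.140 and 0.0767, and 1834 regions in all passed with the block against 2059 without it.

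Among named regions 9 of 210 refits changed sign, all at regions whose 95% interval held 0, and among sums 11 of 100. With total-count scaling the Rara promoter's log2 fold change was 0.027, and the P0 minus E14.5 sums were 13.2 CPM for the 9 genes and 5.26 for Rarb (0.031 for Rarb as mean log2 CPM). The Crabp2 sum was -0.850 without other genes' promoters. When single libraries were left out, log2 fold changes ranged from -0.14 to 0.50 (Aldh1a2), -0.077 to 0.38 (Bcan), -0.16 to 0.10 (Rara promoter), -0.24 to 0.11 (Rarb promoter), -0.31 to 0.0038 (Rarb, 157 kb upstream) and -0.42 to 0.0036 (Rxrb promoter). Others kept their sign but moved by over 1.5 times, such as the internal Rara region (-0.51 to -0.088), the intergenic Crabp2 region (-0.36 to -0.039), Cyp26b1 (-0.26 to -0.043) and the Aldh1a1 promoter (0.13 to 0.48). Sums ranged from -39.96 to 3.09 CPM for the 9 genes, -8.57 to 3.36 (Rara), -21.1 to 3.38 (Rarb), -6.83 to 1.41 (Rxrb), -1.04 to 4.74 (Aldh1a2) and -11.2 to 9.63 (Crabp2). The cause was not tested. The lowest count was 24, at the Rarb region 77.5 kb downstream in E14.5 replicate 3, where counting error weighs most.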

Other observations

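The table also carries columns of predicted enhancer targets. Of the regions there linked to any of the 9 genes, 95 in all, 0 lay on the chromosome of the linked gene. Over the whole table, 998 of 183214 pairs of region and linked gene (0.545%) were on one chromosome. These links were not used, and the gene names taken from the same columns were checked against RefSeq separately.

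The start of Aldh1a2 and the upstream one of the 2 listed starts of Rxra have similar base content, with 77.6% and 81.2% G and C and 40 CpG pairs each in the 250 bases before the start, and a region covered the start of Rxra and not that of Aldh1a2. The other listed start of Rxra, with 55.2% G and C and 1 CpG pair, was not covered. Of the 15 listed starts of the 9 genes, 7 lay in a region, at 5 genes.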
